A study of Mus musculus with 3 samples.

Results

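The interferon response and JAK-STAT genes were followed in the choroid plexus epithelium (CPE), the cell layer that makes cerebrospinal fluid and separates it from the blood. Members were chosen by gene name on the array, with no measured value involved: interferons (names starting with Ifn, which takes in their receptors), interferon regulatory factors (Irf), the numbered Ifi, Ifit and Ifitm genes, Isg, Oas, Stat, Mx and Gbp genes, the kinases Jak1, Jak2, Jak3 and Tyk2, and Usp18 and Eif2ak2. The rule found 125 probes of 82 gene names, among 41174 probes of 27845 names on the array. The RNA came from the CPE of 3 adult, healthy, wild-type C57BL/6 mice, cut by laser from frozen brain sections at the lateral ventricles and amplified before labelling with Cy5 (red). On each of the 3 Agilent arrays, read in 2 colours, 1 per mouse, it was hybridised together with a common reference labelled with Cy3 (green), wild-type C57BL/6 RNA of the eye's choroid and its retinal pigment epithelium (RPE). The dyes were not swapped, so a dye bias of a probe stays in its ratio, and the reference was 1 RNA, so its spread between animals is not in any error below. No interferon, infection or other treatment was part of the design, and the mice and the reference share 1 inbred strain.

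Interferons are secreted when a cell senses a virus or another pathogen. Type I interferons (Ifna genes, Ifnb1 and relatives) bind the receptor chains Ifnar1 and Ifnar2, which carry the kinases Tyk2 and Jak1, and interferon gamma binds Ifngr1 and Ifngr2, which carry Jak1 and Jak2. The kinases phosphorylate STAT factors, which as a complex with Irf9 bind the interferon-stimulated response element (ISRE) of target genes and as pairs bind the gamma-activated site (GAS). The targets include genes that block virus entry (Ifitm), bind or degrade foreign RNA (Ifit, Oas) or attack intracellular pathogens (Gbp). In the brain, the choroid plexus is known as a gate where such signals reach the cerebrospinal fluid.

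RefSeq promoter windows (250 bases before to 50 bases after a gene's start, build GRCm38.p6) were searched on both strands for these binding elements. The ISRE core was GAAANNGAAA or its reverse TTTCNNTTTC, and the GAS was TTCNNNGAA, which reads the same on both strands. Of 84 current member names, 70 had a window, and they had 82 windows in all. The ISRE core stood in 28 of the 82 member windows (34.1%) and in 1131 of 32851 windows of all genes (3.44%), and the GAS in 22 (26.8%) against 2726 (8.3%). By gene, 40% of the 70 members held an ISRE core and 31.4% a GAS, so most members lacked each motif. Members without a test, many of them interferons, held the ISRE core in 9 of 17 windows (52.9%). Matches of 1 motif that overlap each other or the other motif each counted, and windows of 1 gene can overlap. Windows of the Ifna genes, which are near-identical copies, were also counted separately, so their matches are not independent. A match of letters is a description and not a site of binding. The ISRE core stood in 5 of 16 windows of members called lower (31.2%) and in 13 of 47 of members tested and not called (27.7%). Several windows are printed with their genes below, in lower case with the motif in capitals. They were picked for their motifs or their place in a gene cluster, so they do not stand for all members.

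Of the 125 member probes, 90 (63 gene names) were tested, because 1 channel or both gave a signal well above background on every array. Both channels passed for 63 probes, the reference alone for 26 and the CPE alone for 1, a probe of Jak3. The remaining 35 probes had no test. A probe was called when limma's moderated test of the mean log2 ratio of CPE over reference against 0 gave an adjusted p under 0.05, with Benjamini-Hochberg adjustment over all 25838 tested probes, and the change was at least 2-fold. In CPE, 3 member probes (2 genes) were higher, which is 3.33% of those tested, against 7.09% of all tested probes. Lower in CPE were 23 probes (17 gene names), 25.6% of those tested, against 10.2% of all tested probes. These shares of all tested probes are also the background of the family counts below, where a few probes can give 0 calls. The median log2 ratio was -0.195 over the 90 tested member probes and -0.0409 over all tested probes. A probe that passed through the reference alone had to be dim in CPE, and this was so for 3 of the 23 lower calls. The split also depended on centring. With median centring in place of loess, 6 of the 90 tested member probes were higher and 10 of 90 lower. Of all 25838 tested probes, 3743 (14.5%) were then higher and 1842 (7.13%) lower, and their median moved up by 0.132.

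The 26 called probes lay on the same side of 0 in all 3 mice. So did 4449 of all called probes on the array (1833 higher and 2629 lower), so a call nearly implies this agreement. The arrays differed in signal: member probes well above background in CPE numbered 83 for mouse 1, 64 for mouse 2 and 113 for mouse 3, whose CPE background was 362 against 81.1 and 82, and in the reference channel they numbered 98, 94 and 116. Mice 1 and 3 were scanned on 1 day and mouse 2 on another, and the values within the shared scan day are those given without mouse 2. The reference channel, the same RNA on each array, correlated at 0.996 between arrays 1 and 2. With array 3 it correlated at 0.954 for each of them. Array 3 also had the lowest array weight (0.554, against 1.89 and 0.953 for arrays 1 and 2). Each mouse had its own array, so a mouse and its array cannot be told apart. Markers of choroid plexus epithelium bore out the label: 9 of 10 were higher in CPE (Otx2 was not called) and all 10 lay above the 90th percentile of CPE signal. Levels below are log2 intensities after loess and Aquantile normalization. They are compared only between the channels of 1 probe, since probes differ in how well they hybridise. The 3 reference levels of a probe are readings of 1 RNA, so a lack of overlap between the channels is a description. The levels overlapped at 53 of the 90 tested member probes and at 16374 of all 25838 tested probes. Where a gene has several probes they are lettered in order of their coordinate on mouse build mm8.

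The interferon receptor chains were all detected in CPE, with 6 of 6 probes well above background in all 3 mice, and Ifnar2 was the chain whose level was higher in CPE than in the reference. Ifnar2 probe a (chr16:91282658-91282717) read 11.81, 12.15 and 11.38 in CPE of mice 1, 2 and 3 and 10.24, 10.34 and 9.94 in the reference on the same arrays. All CPE values lay above all reference values. The mean log2 ratio was 1.61 (SE 0.16, adjusted p = 0.000257), a 3.05-fold higher level in CPE. Ifnar2 probe b (chr16:91294093-91294152) gave log2 ratios of 1.14, 1.03 and 0.31 in the 3 mice, lower than probe a in each of them. Its mean of 0.83 (SE 0.20, adjusted p = 0.0139) missed the 2-fold limit, and without mouse 3 it became 1.08 and was called. Ifnar2 is known to give membrane-bound and soluble forms, and which transcripts each probe reads was not determined here. Ifnar1, the other type I chain, had log2 ratios of 0.60, 0.17 and 0.15, with a mean of 0.31 and a 95% interval from -0.08 to 0.69. The interferon gamma receptor chains pointed the other way. Ifngr1, the ligand-binding chain, had log2 ratios of -0.74, -0.57 and -0.75 (mean -0.69, SE 0.15, adjusted p = 0.00957), under the 2-fold limit but below 0 in 3 of 3 mice. Ifngr2, the signalling chain, had means of -0.82 and -0.55 at its probes a and b, with all 6 values below 0. The CPE signal of Ifnar2 probe a ranked at percentile 96.3 of all probes and that of Ifngr1 at 93.8, both in the high class (above percentile 90), and the other receptor probes ranked between 64.9 and 83.3.

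The interferons themselves were near the limit of detection. Of 17 probes of 14 interferon genes, 0 were well above background in CPE of all 3 mice, and 5 were above it in no mouse. The probes that were tested, of Ifna2, Ifna9 and Ifng, passed through the reference channel, with mean log2 ratios between -0.11 and -0.03. None was called by limma, and 0 had an unadjusted p under 0.05. The other 14 probes, Ifnb1 among them, had no channel that was well above background on every array. The Ifna genes form a cluster of near-identical copies, so their probes may read each other's transcripts.

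The JAK kinases were detected, and none of their 8 tested probes was called by limma at the 2-fold limit. Jak1, the kinase shared by both interferon receptors, had CPE levels of 10.97, 10.42 and 10.72 and reference levels of 11.52, 11.64 and 11.39 at probe b. The CPE values lay below the reference values, without overlap. Its mean log2 ratio was -0.82 (SE 0.18, adjusted p = 0.0105), and probe a gave -0.67 and probe c, well above background in CPE on 1 array, gave -0.30. Jak2, which serves the interferon gamma receptor and many cytokine receptors, had a mean of -0.67 at probe b. Its probe a, above background in CPE on 1 array, had -0.30. Tyk2, the kinase of Ifnar1, had log2 ratios of 0.44, 0.45 and 0.24 and a 95% interval of the mean from 0.02 to 0.73. Jak3, known from lymphocytes, had means of 0.74 at probe a and 0.56 at probe c. At an unadjusted p under 0.05, 6 of the 8 probes passed, and 4 did so after adjustment with a change under 2-fold. With the scanner software's log ratio, Jak3 probe a was called higher.

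Of the STAT factors described here, Stat3 was lower in CPE at 1 of its probes and the others were not called. Stat3, which carries signals of interleukin 6 and related cytokines, had at probe b log2 ratios of -0.72, -1.79 and -1.08 (mean -1.19, SE 0.22, adjusted p = 0.00448), and without mouse 2 its mean became -0.90 and with median centring -0.57, neither of them called. Stat3 probe a, dim in CPE, had a mean of -0.03. Stat2, a factor of the type I response, had log2 ratios of -0.57, -0.74 and 0.00 with a 95% interval of the mean from -0.87 to 0.00. Stat5a, activated by prolactin and growth hormone, pointed the other way with 0.81, 1.11 and 0.37 (mean 0.76, adjusted p = 0.0146). It lay above 0 in 3 of 3 mice, missed the 2-fold limit and was called higher (1.13) with median centring. Stat6, the factor of interleukin 4, had means of 0.57 and 0.06 at its tested probes. Stat5b had -0.26 at probe a and 0.07 at probe c, the latter above background in CPE on 1 array. Stat4, of interleukin 12, had 0.33, also from a signal above background in CPE on 1 array.

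Among the interferon regulatory factors described here, Irf1 was lower in CPE and none was higher. Irf1, a factor that interferon gamma induces, read 10.01, 10.29 and 10.08 in CPE and 11.27, 11.35 and 11.45 in the reference at probe b. All CPE values lay under all reference values, with a mean log2 ratio of -1.23 (SE 0.15, adjusted p = 0.000811). With median centring it became -0.58 and was not called. Irf1 probe a, at a lower coordinate, gave 0.01, -0.29 and 0.34, with values on both sides of 0. Irf2, an antagonist of Irf1, pointed the other way with 1.28, 1.00 and 0.52 (mean 0.93, SE 0.19, adjusted p = 0.00664). It missed the 2-fold limit and was called without mouse 3 (1.14), with median centring (1.41), with array weights (1.08) and with the scanner software's log ratio (1.32). Irf3 and Irf7, which switch on interferon genes after virus sensing, had means of 0.13 and 0.21. Irf5 had 0.51, Irf8, known from myeloid cells, had 0.56 and 0.16, and Irf9, the partner of Stat2 that the array names Isgf3g, had -0.13 and -0.22. For these 5 factors the values of the mice lay on both sides of 0 at each tested probe except Irf9 probe b, where all 3 lay below 0. Irf4 was not tested.

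**Figure D1:**
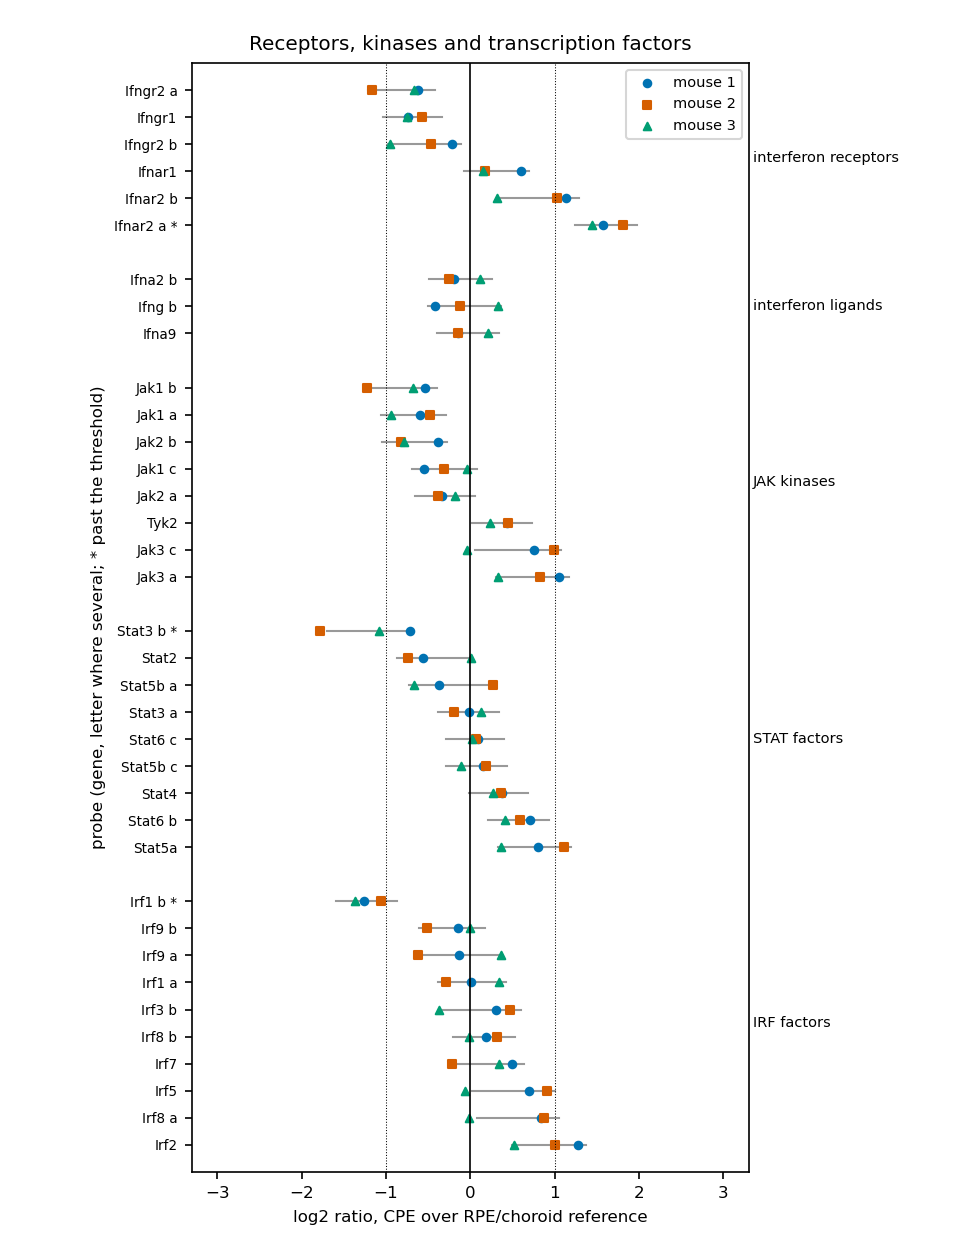
Log2 ratio of CPE over the RPE/choroid reference for tested probes of the receptors, interferons, kinases and transcription factors that are described here, with a marker for each of the 3 mice, a grey line for the 95% interval of the mean from limma and dotted lines at the 2-fold limit. Asterisks mark called probes: Ifnar2 probe a lies to the right, and probes of Stat3 and Irf1 lie to the left.

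The IFIT family, whose proteins bind foreign RNA, was lower in CPE at 3 of 5 probes, 1 each of Ifit1, Ifit2 and Ifit3. Ifit3 probe a (chr19:34654612-34654671) read 10.12, 9.38 and 9.94 in CPE and 12.40, 12.31 and 11.72 in the reference. No CPE value reached a reference value, and the mean log2 ratio was -2.33 (SE 0.23, adjusted p = 0.000243), a 5.03-fold higher level in the reference. Ifit1 had log2 ratios of -1.68, -2.18 and -0.68 (mean -1.51, SE 0.27, adjusted p = 0.00402). Mouse 3 was the mildest, and its reference channel was also dimmer for Ifit1 (10.05, 9.93 and 7.37 on the 3 arrays), so that the levels of the channels overlapped although the ratios did not reach 0. Ifit2 probe b had -1.37, -1.55 and -0.41 (mean -1.11, SE 0.23, adjusted p = 0.00837) and levels that overlapped too, and without mouse 1 it became -0.98, without mouse 2 -0.89 and with median centring also -0.89, none of them called. Ifit3 probe b had a mean of -0.67 and was called without mouse 3 (-1.01), and Ifit2 probe a had -0.08. Mouse 3 had the value nearest to 0, or above it, at all 5 probes. The promoter windows of Ifit1 and Ifit3 are shown since each held the ISRE core 2 times upstream of the start, at -104 and -85 in Ifit1 and at -156 and -122 in Ifit3, counted in bases from the start to the first base of the match. Ifit1 lies at chr19:34640639-34640938 (plus strand) and Ifit3 at chr19:34583279-34583578 (plus strand).
Ifit1: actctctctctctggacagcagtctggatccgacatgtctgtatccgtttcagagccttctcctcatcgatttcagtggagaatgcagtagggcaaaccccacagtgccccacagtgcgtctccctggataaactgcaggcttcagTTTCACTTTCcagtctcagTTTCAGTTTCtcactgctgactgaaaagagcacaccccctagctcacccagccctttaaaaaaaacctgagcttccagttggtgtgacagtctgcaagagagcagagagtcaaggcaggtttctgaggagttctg
Ifit3: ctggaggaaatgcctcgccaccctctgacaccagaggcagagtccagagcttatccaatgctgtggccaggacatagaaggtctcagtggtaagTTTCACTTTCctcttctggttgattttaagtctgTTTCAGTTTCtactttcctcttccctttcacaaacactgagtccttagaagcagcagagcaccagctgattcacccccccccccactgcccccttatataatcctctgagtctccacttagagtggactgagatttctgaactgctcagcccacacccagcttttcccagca

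The IFITM family, membrane proteins that stop viruses from entering cells, split: Ifitm2 was higher in CPE, Ifitm1 and Ifitm7 were lower, and Ifitm3 was not called. Ifitm2 probe b (chr7:140806333-140806392) read 12.26, 12.24 and 12.12 in CPE and 10.37, 10.76 and 10.65 in the reference, a mean log2 ratio of 1.62 (SE 0.16, adjusted p = 0.0003) or 3.06-fold. Probe a gave 1.82, 1.28 and 1.01 (mean 1.37, SE 0.19, adjusted p = 0.00134), and its coordinate in the scanner file, chr7:46700586-46700645, lies elsewhere on the chromosome than the rest of the Ifitm cluster. Ifitm1 (chr7:140820876-140820935) read 11.10, 10.77 and 11.07 in CPE and 13.37, 13.32 and 13.38 in the reference. Its ratios lay close together in the 3 mice, with a mean of -2.37 (SE 0.15, adjusted p = 4.08e-05), or 5.18-fold higher in the reference. Ifitm7 (chr16:13897231-13897290, the family member on another chromosome) had log2 ratios of -1.33, -1.70 and -1.43 (mean -1.49, SE 0.16, adjusted p = 0.000379). It was not called with median centring (-0.68). Ifitm3 (chr7:140861012-140861071) read 12.74, 12.27 and 12.68 in CPE and 12.78, 12.90 and 12.83 in the reference, with a mean log2 ratio of -0.27 and a 95% interval from -0.68 to 0.14. In CPE signal these 4 genes ranked at percentiles 98.1 (Ifitm3), 97.3 (Ifitm2 probe b), 96.1 (Ifitm7) and 93.8 (Ifitm1), all in the high class, so the lower genes were still bright in CPE. Ifitm5, which is known from bone, was not tested, and Ifitm6 was above background in CPE on 0 arrays (mean -0.24, passed through the reference). The windows of Ifitm1, Ifitm2 and Ifitm3 are shown because these neighbours on 1 chromosome differed in their ratio. The ISRE core stood at -46 in Ifitm2 and at 2 and 19 in Ifitm3, where a GAS at 13 overlapped it, and neither motif stood in the window of Ifitm1. Ifitm1 lies at chr7:140967826-140968125 (plus strand), Ifitm2 at chr7:140955912-140956211 (minus strand) and Ifitm3 at chr7:141010695-141010994 (minus strand).
Ifitm1: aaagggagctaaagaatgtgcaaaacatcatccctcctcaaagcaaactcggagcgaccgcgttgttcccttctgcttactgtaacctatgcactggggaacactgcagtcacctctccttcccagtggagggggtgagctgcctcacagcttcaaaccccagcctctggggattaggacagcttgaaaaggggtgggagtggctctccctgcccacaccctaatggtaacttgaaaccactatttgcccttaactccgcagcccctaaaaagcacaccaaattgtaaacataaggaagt
Ifitm2: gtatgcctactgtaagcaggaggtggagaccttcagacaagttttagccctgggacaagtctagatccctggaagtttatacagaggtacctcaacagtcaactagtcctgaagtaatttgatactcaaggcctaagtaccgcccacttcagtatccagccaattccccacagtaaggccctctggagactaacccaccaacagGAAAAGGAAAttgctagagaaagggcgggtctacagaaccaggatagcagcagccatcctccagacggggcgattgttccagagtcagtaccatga
Ifitm3: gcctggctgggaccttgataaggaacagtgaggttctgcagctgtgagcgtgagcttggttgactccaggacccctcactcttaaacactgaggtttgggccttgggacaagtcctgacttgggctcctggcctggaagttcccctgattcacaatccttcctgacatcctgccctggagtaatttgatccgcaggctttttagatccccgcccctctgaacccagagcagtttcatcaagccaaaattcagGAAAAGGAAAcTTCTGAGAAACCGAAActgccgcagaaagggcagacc

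**Figure D2:**
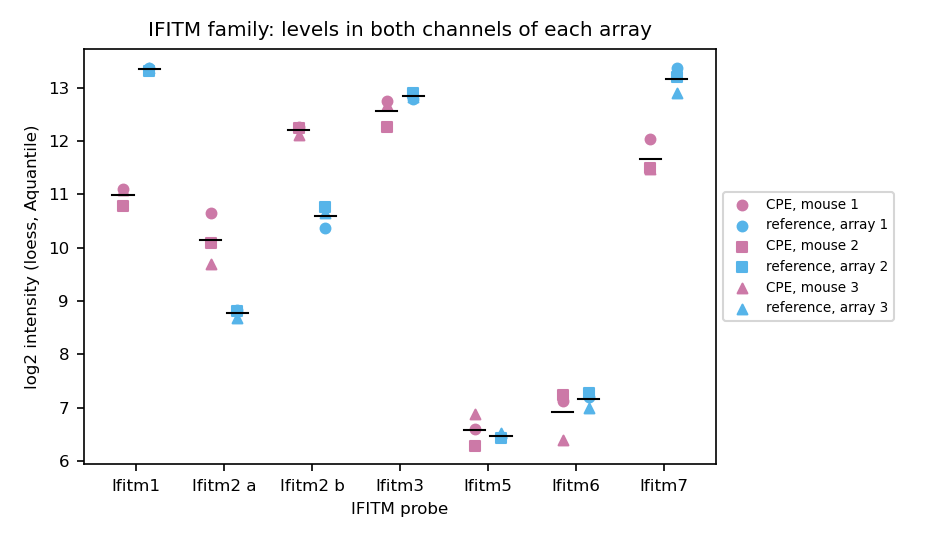
Log2 intensity after loess and Aquantile of the 7 IFITM probes in the CPE channel (pink) and the reference channel (blue), with a marker shape for each of the 3 arrays and bars at the means. CPE lies above the reference at both Ifitm2 probes and below it at Ifitm1 and Ifitm7, and levels should be compared within a probe only.

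The OAS family makes or resembles the oligoadenylate synthetases, which activate RNase L to degrade viral RNA. Of 15 probes of 12 genes, 8 were tested and 1 was called, Oasl2. Oasl2, a member of the OAS-like branch, read 8.72, 8.08 and 7.10 in CPE and 9.85, 9.40 and 8.76 in the reference. The channels did not overlap, and the mean log2 ratio was -1.37 (SE 0.17, adjusted p = 0.000727). With median centring it became -0.95 and was not called. The other 7 tested probes, of Oas1a, Oas1b, Oas1c, Oas1e, Oas1f, Oas2 and Oasl1, had means between -0.26 and 0.55. The Oas1 genes are close copies of each other, and their probes may share transcripts.

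The guanylate-binding proteins, GTPases that attack pathogens inside cells, were lower at 3 probes, of Gbp2, Gbp3 and Gbp7. Gbp2 read 9.16, 8.83 and 8.56 in CPE and 10.39, 10.40 and 10.38 in the reference. The reference was near constant over the arrays and lay above every CPE value, with a mean log2 ratio of -1.53 (SE 0.17, adjusted p = 0.000479). Gbp3 had log2 ratios of -1.94, -2.15 and -1.20 (mean -1.77, SE 0.21, adjusted p = 0.000625), or 3.4-fold higher in the reference. Gbp7, which the array names Gbp6, had -0.70, -1.53 and -0.85 (mean -1.03). Its levels overlapped between the channels, it was above background in CPE on 2 arrays, and the call held under 4 of 10 alternatives. It was lost without mouse 2 (-0.78), with median centring (-0.78), with no background correction (-0.88), with array weights (-0.96), with the scanner software's log ratio (-1.57, adjusted p = 0.0573) and with limma's treat test. Gbp2 missed the limit narrowly with median centring (-0.996). Gbp4 and Gbp5 had means of -0.01 and 0.34, and Mx2, a GTPase against viruses, had 0.18. Mx1 and the gene that the array names Gbp1 were not tested. The window of Gbp2 (chr3:142620413-142620712 (plus strand)) is shown because it held the ISRE core close to the start, at -59.
Gbp2: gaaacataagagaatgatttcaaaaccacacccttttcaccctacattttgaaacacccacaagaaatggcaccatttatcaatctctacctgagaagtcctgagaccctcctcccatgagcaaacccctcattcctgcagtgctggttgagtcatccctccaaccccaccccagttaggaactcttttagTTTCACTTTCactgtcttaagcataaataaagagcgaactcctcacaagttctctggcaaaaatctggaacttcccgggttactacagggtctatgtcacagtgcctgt

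The group of Isg15, its protease Usp18, the RNA-activated kinase Eif2ak2 (PKR) and the Isg20 exonuclease family had 0 of 9 tested probes called by limma, 3 of them with an unadjusted p under 0.05. Usp18, which removes Isg15 from proteins and damps type I signalling, had log2 ratios of -0.59, -1.29 and -0.14 (mean -0.67, adjusted p = 0.0495). Eif2ak2, which halts translation on foreign RNA, had a mean of -0.21 and a 95% interval from -0.69 to 0.27. The probe named Isg15 gave 0.64, -0.07 and -0.13 (mean 0.15), but the scanner file places it at chr17:45870420-45870479 whereas the RefSeq gene is on chromosome 4, so its value may not be that of Isg15. Isg20 had means of 0.13 and -0.24. Isg20l2, an exonuclease relative, had 0.40 and -0.78 at its 2 probes, and probe b was called lower without mouse 2 (-1.02). The probes named Isg20l1, a name now replaced by Aen for most of them, had 0.53 and 0.25 where tested, and the second of these lies on chromosome 4 although Aen is on chromosome 7.

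The remaining Ifi genes were lower at 7 of 14 tested probes, and none was higher. The array name Ifi27 covers 2 genes, Ifi27 and Ifi27l2a, small mitochondrial or nuclear membrane proteins that type I interferon induces. Ifi27l2a probe a read 10.05, 10.19 and 10.31 in CPE and 12.12, 12.12 and 12.01 in the reference, and probe b gave log2 ratios of -1.07, -1.24 and -1.06. The means were -1.90 (SE 0.16, adjusted p = 0.00012) and -1.12, and no channels overlapped. Probe b was not called with median centring (-0.54). Ifi27 had -2.17, -1.80 and -1.43 (mean -1.80, SE 0.18, adjusted p = 0.000316). Ifi202b and Ifi204 belong to a family of close copies that bind DNA. Ifi202b had log2 ratios of -2.88, -2.44 and -1.33 (mean -2.21, SE 0.28, adjusted p = 0.000825), but was above background in CPE on 1 array only. Ifi204 probe a had -1.34, -1.28 and -1.52 (mean -1.38, SE 0.15, adjusted p = 0.00044). Ifi204 probe b, which starts on the base after it, had -1.52, -1.21 and -0.41 (mean -1.04). Mouse 3 was nearest to 0 there, and without mouse 1 the mean became -0.81, without mouse 2 -0.96 and with median centring -0.73, none of them called, and the call held under 7 of 12 alternatives. Probe c, dim in CPE, had 0.10. Ifi47, a GTPase against intracellular pathogens, read 8.65, 8.81 and 9.33 in CPE and 10.05, 10.20 and 10.52 in the reference (mean log2 ratio -1.33, SE 0.15, adjusted p = 0.000518), and with median centring it became -0.85 and was not called. The other tested probes, of Ifi30, a reductase for antigen processing, Ifi35, Ifi44, Ifi203, Ifi204 and Ifi205, had means between -0.47 and 0.39.

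**Figure D3:**
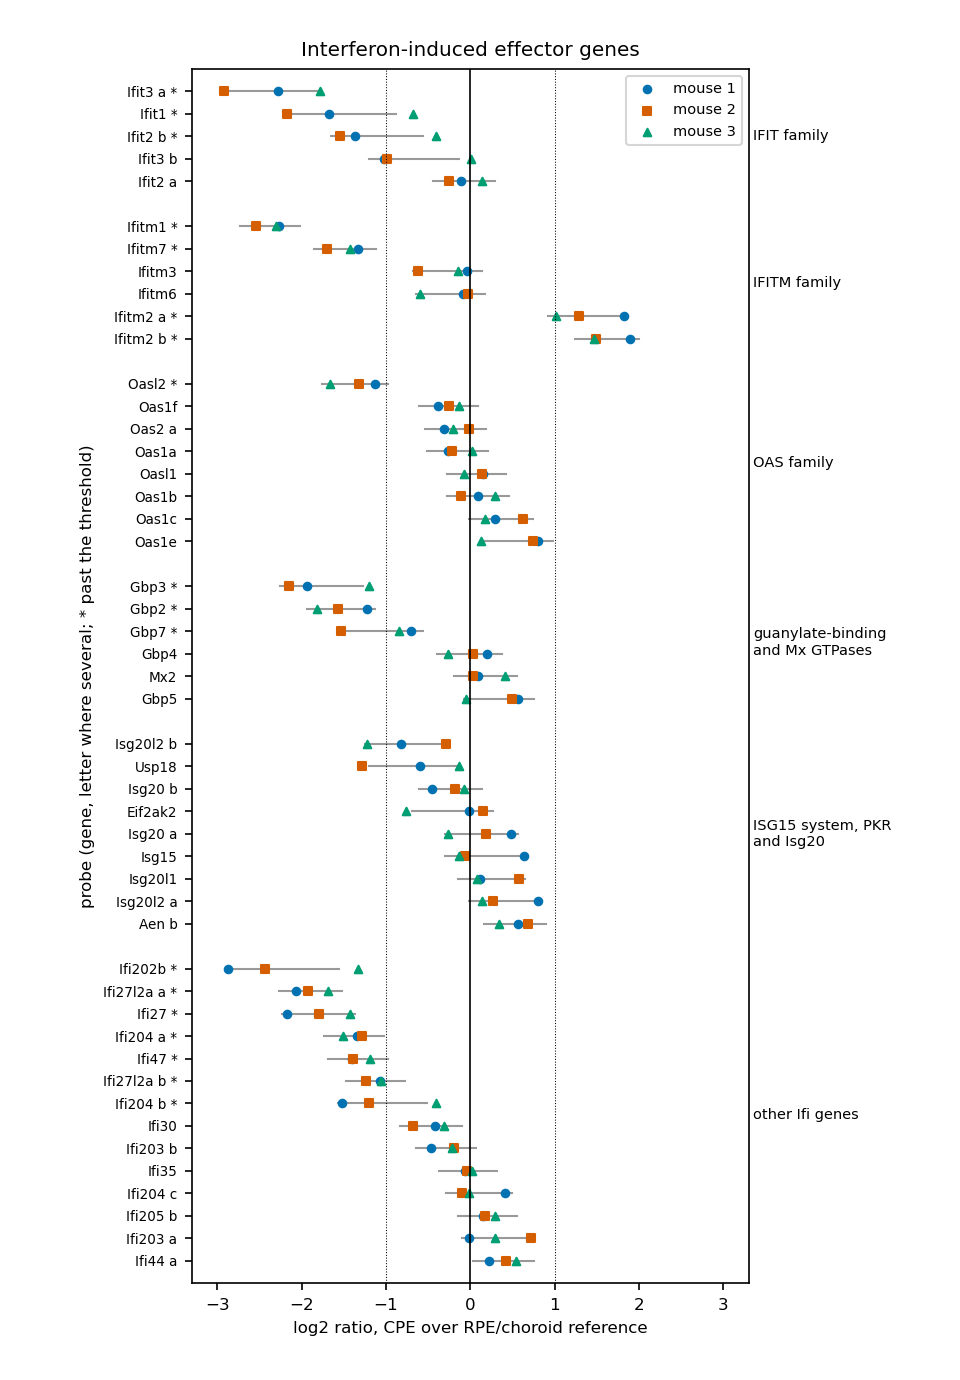
Log2 ratio of CPE over the RPE/choroid reference for each tested probe of the effector genes, with a marker for each of the 3 mice, a grey line for the 95% interval of the mean from limma and dotted lines at the 2-fold limit. Asterisks mark called probes: both Ifitm2 probes lie to the right, and 16 probes lie to the left, from Ifitm1 (-2.37) to Gbp7 (-1.03).

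In rank of CPE signal, 7 member probes lay in the high class (5.6%, against 10% of all probes by construction), 66 in the moderate class (percentiles 50 to 90), 48 in the low class (10 to 50) and 4 in the very low class. The high probes were of Ifitm3, Ifitm2, Ifnar2, Ifitm7, Ifngr1, Ifitm1 and Jak1, with Jak1 probe b lowest of them at 92.2. Just outside the limit lay Ifi27l2a probe a (89.2) and Irf1 probe b (88.8). Several genes that were lower in CPE were still moderate in rank there, among them Ifit3 probe a (86.7), Ifi27 (86.9), Stat3 probe b (88.3) and Gbp3 (80.7). All interferon probes were low or very low. A rank tells where a probe stands on the array, and it does not order transcripts of different genes by abundance.

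**Figure D4:**
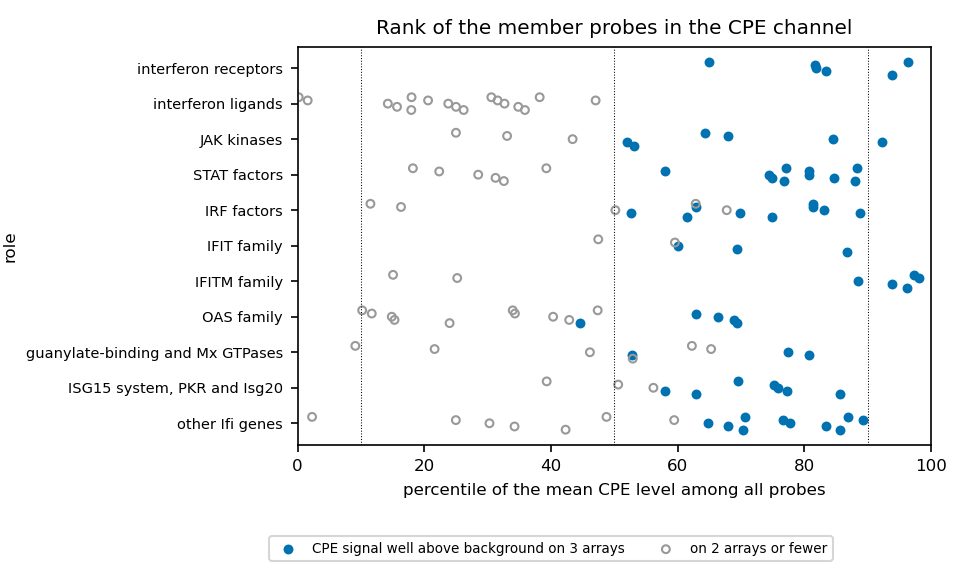
Percentile of the mean CPE signal of each of the 125 member probes among all 41174 probes, by role, with filled points for probes well above background in CPE on all 3 arrays and dotted lines at percentiles 10, 50 and 90. Interferons lie below 50, and 7 probes of receptors, Jak1 and IFITM genes lie above 90.

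Genes of the pathway outside the rule were taken from fixed lists, with the brightest tested probe for each gene. At 1 probe per gene, 8.04% of all tested probes were higher in CPE and 11.1% lower, and the lists are small. Of 7 tested sensors of foreign RNA and DNA and their kinases, such as Ifih1, Mavs, Tlr3 and Tbk1, limma called 0, and 2 had an unadjusted p under 0.05. Their log2 ratios lay between -0.42 and 0.53. Of 19 tested further interferon targets, 2 were higher in CPE and 4 lower, and the list's median log2 ratio was -0.629. Bst2, or tetherin, which holds budding viruses on the cell surface, was higher, with log2 ratios of 3.01, 2.00 and 2.64 (mean 2.55, SE 0.21, adjusted p = 0.000117) and a CPE signal at percentile 98.3. Tgtp1, a GTPase with a near-identical copy in the genome, had 1.55, 0.84 and 0.96 (mean 1.11, adjusted p = 0.00296). The lower genes were Ube2l6, the conjugating enzyme of Isg15 (-1.49), Rtp4 (-1.41), Irgm1, a GTPase against intracellular bacteria (-1.15), and Samhd1, which depletes nucleotides (-1.02). The 13 not called had means between -0.97 and 0.25.

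Both RNAs came from tissue pieces, so fewer cells of a type and less RNA per cell cannot be told apart. Markers of other cell types were read in the same fit. Summed levels add the intensities of the same probes in each channel. The brightest probes dominate such a sum, so it is no measure of cell number or of the marker set as a whole. Of 10 macrophage and microglia markers, 7 were lower in CPE (median log2 ratio -1.24), and their summed level lay between 13.40 and 13.47 in CPE and between 16.00 and 16.13 in the reference. All 10 were well above background in CPE of every mouse. Among them Lyz2 was at -3.40, Cd68 at -1.89, Csf1r at -1.18 and Cx3cr1 at 0.56. Lyz2, at levels of 15.66 to 15.80 in the reference, carried most of the reference sum of these markers. Of 6 stroma markers, 5 were lower (median -1.80), with sums of 14.19 to 14.37 in CPE and 16.83 to 17.05 in the reference. Dcn, which carried most of that reference sum, was saturated on 2 of 3 reference arrays, so that sum may be understated. Of 8 endothelial markers, Tie1 was higher and Vwf lower, with sums of 13.05 to 13.54 in CPE and 13.39 to 13.54 in the reference. Of 8 lymphocyte markers, 4 could be tested and 0 were called, 1 with an unadjusted p under 0.05, and 1 of the 8, Cd3e, was above background in CPE of all mice. All 6 RPE and melanocyte markers (median -5.57) and all 6 photoreceptor markers (median -4.88) were lower, and Tyr was above background in CPE of no mouse. The part of these cells in the ratios of the interferon genes was not tested.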

How the data were processed

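The authors analysed the scanned arrays with Agilent Feature Extraction 9.5.3.1 and normalized them in R 2.14.0 with limma, per the labels and the study's methods. The deposited scanner tables hold the intensity of each spot in both channels on a linear scale, its background and flags, and the log10 ratio of the processed channels. The deposited series-wide table gives log2 levels of the CPE channel after the authors' Aquantile normalization (rank correlation with the red channel 0.9977 to 0.9989). It served as an alternative for ranks, and 0 columns were left out as unmapped.

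Files were read here with R 4.3.3 and limma 3.58.1. Background was corrected with normexp (offset 50), arrays were normalized with loess, controls and outlier spots were dropped, and replicate spots were averaged, leaving 41174 probes. Of these, 25838 had a channel well above background on every array and were tested with limma's moderated test of the mean log2 ratio against 0, with no covariates. Adjusted p-values are Benjamini-Hochberg values over all tested probes, and errors (SE) and intervals come from this fit. Ranks followed the study's methods: log2 mean red intensity without background correction, Aquantile, mean over the 3 mice. The number of arrays limits precision. The fit was checked on simulated data. Figures were drawn with matplotlib 3.10.9.

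Gene names came from the scanner files and, for 101 of 125 member probes, from RefSeq accessions. Coordinates of probes come from the scanner files (mm8). Exons, introns and UTRs are not given, since an mm8 annotation was not used here. Named were all receptor, kinase, STAT and IRF members, every other member gene with a called or high probe, interferons by counts with values only where tested, and called genes of the pathway lists. A few members that the rule names are counted in the totals but not reported here. Other members are given by counts and ranges, except where a gene's other probes or its group are described, which was decided after their values were seen. The members, lists and tests were chosen with earlier results of these data known. Alternatives were other background corrections, centring, filters, weights, thresholds, 1 probe per gene and leaving out each mouse.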

Additional observations from a re-analysis of the deposited data

How the results depend on the processing

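Of the 26 called member probes, 7 were called under every alternative that could be run for them, among them probes of Ifnar2, Ifitm1, Ifit3, Ifi27, Ifi27l2a and Ifi202b. Ifi202b, above background in CPE on 1 array only, could be run under 10 of 12 alternatives. The filters on both channels and on the CPE channel left it out, so they could not test its call. No called probe changed sign, and 33 sign changes occurred among probes that were not called. The member counts that follow are out of 90 tested probes unless another total is given. The count of member probes higher in CPE (3) became 6 with median centring, 6 with the scanner software's log ratio and 1 with limma's treat test against 2-fold. It lay between 3 and 5 when 1 mouse was left out, with 5 without mouse 3. The count of lower probes (23) became 10 with median centring and 6 with treat, and lay between 18 and 25 when 1 mouse was left out, with 18 without mouse 2. The shares of all tested probes moved too. Higher were 7.09% in the main fit, 14.5% with median centring, 11% with the scanner ratio and 1.76% with treat. Lower were 10.2%, 7.13%, 15.1% and 3.71% in that order. Without 1 mouse, 5.57% to 9.61% were higher and 10% to 11% lower. With median centring 13 of the 26 calls were shared with the main fit. The 7 probes in the high class became 4 when only probes well above background were ranked, and numbered 7 to 8 without 1 mouse. No background correction (3 higher, 20 lower), no filter (3 and 23 of 125), a filter on both channels (3 and 20 of 63), array weights (4 and 22), 1 probe per gene (2 and 16 of 63) and a filter on the CPE channel, chosen after seeing the data (3 and 20 of 64), moved the counts by at most 1.5 times. Over all tested probes these settings gave 4.44% to 9.91% higher and 6.34% to 11.3% lower. The cause of these shifts was not tested, except that treat asks for more evidence of the same values by construction. The test used the ratio within each array, so CPE and reference were already paired by array, and the arrays form a single group. Signal over background limits the 35 probes that were not tested and the ratios of probes dim in CPE.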

Other observations

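JAK-STAT signalling also serves hormones and other cytokines, and genes of those branches were taken from fixed lists, with the brightest tested probe per gene. Of 14 tested cytokine receptor genes, 2 were higher in CPE and 1 lower, against 8.04% and 11.1% of all tested probes at 1 probe per gene. Prlr, the prolactin receptor, which signals through Jak2 and Stat5a, had log2 ratios of 4.84, 3.94 and 4.36 in mice 1, 2 and 3 (mean 4.38, SE 0.20, adjusted p = 1.1e-05) and ranked at percentile 99.0 of CPE signal. Lepr, the leptin receptor, which signals through Jak2 and Stat3, had 3.31, 3.40 and 2.40 (mean 3.04, SE 0.22, adjusted p = 6.7e-05). Osmr, the receptor of oncostatin M, was lower at -1.94, -1.64 and -2.05 (mean -1.88, SE 0.16). The 11 receptors not called lay between -0.48 and 0.95, with Ghr, the growth hormone receptor, at the upper end.

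Of 13 tested brakes on the pathway, 2 were higher and 1 lower, against the same shares of 8.04% and 11.1%. Cish and Socs2, inhibitors that STAT5 factors are known to induce, had log2 ratios of 2.56, 2.17 and 1.71 (mean 2.15, SE 0.19, adjusted p = 0.000175) and of 1.81, 1.33 and 0.80 (mean 1.31, SE 0.21, adjusted p = 0.0025). Mouse 3 was the lowest for both genes. Socs1, which interferons induce, had 1.06, 1.27 and 0.20 (mean 0.84) and Socs3 had a mean of 0.18, and neither was called. Ptpn2, a phosphatase that acts on Jak1, was lower at -1.24, -0.89 and -1.49 (mean -1.21, SE 0.17). All p-values are those of limma's test over all tested probes.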
